A study of Mus musculus with 7 samples.

Results

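Described here are the 8 genes that encode the cartilage fibril collagens and collagen X, Col2a1, Col9a1, Col9a2, Col9a3, Col11a1, Col11a2, Col10a1, and Col27a1, in mouse knee joints after surgery. They are the rows of the deposited gene count table whose gene name is exactly one of these symbols, 8 of 55401 genes, and all 8 passed the filter on low counts that left 16429 genes for testing (CPM, the counts scaled to library size, above 1 in 2 or more samples). Total RNA was sequenced from 4 WT and 3 Trpc1-/- samples of male C57BL/6J mice. The mice were 10 weeks old at destabilization of the medial meniscus (DMM) of the right knee, a surgical model of osteoarthritis, and the tissue was collected 2 weeks later. Trpc1-/- mice lack the calcium channel subunit TRPC1 in all tissues, each sample pooled 2 to 3 mice, and all samples had DMM, so that no unoperated knee enters the comparison. The labels name cartilage of the femoral head and the tibial plateau, and the published methods add subchondral bone.

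Type II collagen, the product of Col2a1, forms the bulk of the fibrils of hyaline cartilage. Type XI collagen, with chains encoded by Col11a1, Col11a2, and Col2a1 itself, lies inside these fibrils and limits their width, and type IX collagen, encoded by Col9a1, Col9a2, and Col9a3, decorates their surface. Type X collagen (Col10a1) forms networks around hypertrophic chondrocytes, next to calcifying cartilage, and type XXVII collagen (Col27a1) is a fibrillar collagen of cartilage.

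Library totals over all genes were 52142451, 99831099, 116815517, and 75284143 in WT replicates 1 to 4 and 118254070, 94972137, and 106517535 in Trpc1-/- replicates 1 to 3. A member's count in a sample lay between 6900 and 361712, against a floor of 3 counts, so depth did not limit these genes. Trpc1, the targeted gene, was set against the labels and measured 4.83, 4.55, 4.77, and 4.33 CPM in WT replicates 1 to 4 and 3.35, 3.79, and 3.04 CPM in Trpc1-/- replicates 1 to 3. Every Trpc1-/- sample was below every WT sample, with a log2 fold change (logFC) of −0.44 (SE 0.13, adjusted P = 0.407 by edgeR). The allele lacks 1 exon and counts cover the whole gene, so transcripts without that exon still count. Separation of this kind occurs in 6.42% of all tested genes, so these counts go along with the labels but do not verify them. CPM are scaled by trimmed mean of M values (TMM) throughout. Members took 0.539%, 0.631%, 0.631%, and 0.638% of all counts in WT replicates 1 to 4 and 0.318%, 0.601%, and 0.309% in Trpc1-/- replicates 1 to 3. Trpc1-/- replicate 2 lay among the WT samples, and the other 2 Trpc1-/- samples lay below every WT sample.

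The chains share a repeat of glycine and 2 further residues (Gly-X-Y), the basis of the collagen triple helix. In the coding sequences of GENCODE M21, blocks of at least 5 uninterrupted Gly-X-Y triplets were counted. The longest block had 339 triplets in Col2a1 and 338 in each of Col11a1 and Col11a2, as in long unbroken fibrillar helices. Col27a1 had a longest block of 217 triplets. The chains of type IX collagen each had 6 blocks, with 195, 195, and 194 triplets in all for Col9a1, Col9a2, and Col9a3 and a longest block of 113 in each. Col10a1 had 9 blocks with 149 triplets in a protein of 680 residues, and its transcript has 3 exons, compared with 32 to 67 exons for the other members. Col9a2 and Col27a1 lie on chromosome 4, and each of the other 6 members has a chromosome of its own.

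Compared per kilobase of transcript (the coding transcript with the longest coding sequence), Col2a1 had the highest level of the 8 genes in each of the 7 samples, at a mean of 583 ± 48.5 CPM per kb over the 4 WT samples (SD) and 419 ± 193 over the 3 Trpc1-/- samples (SD). By the mean over the 7 samples Col10a1 came next (177 ± 82.7 CPM per kb, SD), followed by Col11a2 (126 ± 32.8), Col11a1 (91.0 ± 21.7), Col9a1 (60.0 ± 21.3), Col9a2 (58.3 ± 17.7), Col9a3 (46.9 ± 13.1), and Col27a1 (17.8 ± 6.89). Within samples, this order held between neighbours in 7 of 7 samples with 2 exceptions. Col10a1 was above Col11a2 in 6 samples, all but WT replicate 1, and Col9a1 was above Col9a2 in 5. Col9a1 and Col9a2 thus did not differ beyond their spread, at a ratio of 1.02 ± 0.10 per kb (SD, n = 7), whereas Col11a2 was above Col11a1 by a ratio of 1.38 ± 0.128 per kb. With the length of all annotated exons in place of that transcript, Col9a2 moved to rank 4, Col11a1 to rank 5, and Col9a1 to rank 6. By its mean over the 7 samples on that exon scale, Col2a1 ranked 4 of the 44 collagen genes in the table. It came after Col1a1, Col1a2, and Col3a1, which are collagens of bone and fibrous tissue.

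**Figure D1:**
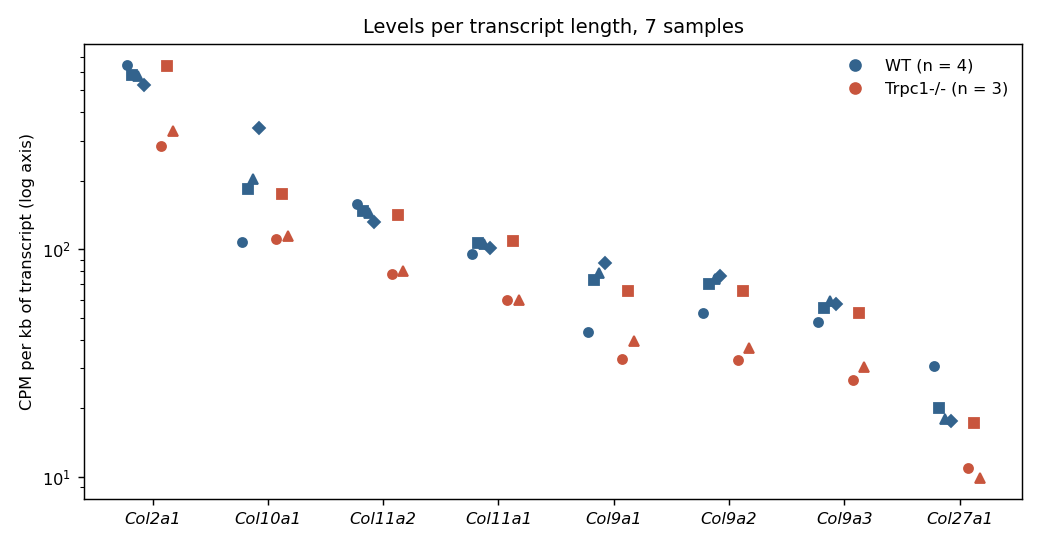
Level of each gene in CPM per kb of transcript (log axis) in 4 WT and 3 Trpc1-/- samples, ordered by the mean over the 7 samples, with one point a sample. Col2a1 is the highest in every sample, and Trpc1-/- replicates 1 and 3 lie at the lower end of most genes.

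Col2a1 (ENSMUSG00000022483, chr15:97975602-98004695 of GRCm38, minus strand) measured 3299.8, 2967, 2944, and 2697 CPM in WT replicates 1 to 4 and 1453, 3266, and 1695 CPM in Trpc1-/- replicates 1 to 3. The groups overlapped, because Trpc1-/- replicate 2 was within the WT range and Trpc1-/- replicates 1 and 3 were below every WT sample. The mean of the 4 WT samples was 2977 ± 248 CPM (SD), that of the 3 Trpc1-/- samples 2138 ± 985 CPM (SD). Between genotypes this gave a logFC of −0.48 (SE 0.28, edgeR adjusted P = 0.565), which lay between −0.93 without Trpc1-/- replicate 2 and −0.26 without Trpc1-/- replicate 1. In these bulk samples, fewer chondrocytes and less RNA per chondrocyte cannot be told apart.

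The type XI chains had the same arrangement of samples. Col11a1 (ENSMUSG00000027966) measured 731, 818, 805, and 776 CPM in WT replicates 1 to 4 and 459, 836, and 459 CPM in Trpc1-/- replicates 1 to 3. Col11a2 (ENSMUSG00000024330) measured 854, 791, 779, and 709 CPM in the WT replicates and 422, 763, and 432 CPM in the Trpc1-/- replicates, in the same order. For both genes, Trpc1-/- replicates 1 and 3 were below every WT sample, and for Col11a1 Trpc1-/- replicate 2 was the highest of the 7 samples. The WT samples were close together, at 783 ± 38.8 CPM for Col11a1 and 783 ± 59.1 CPM for Col11a2 (SD, n = 4). In edgeR, Col11a1 had a logFC of −0.42 (SE 0.22, adjusted P = 0.537) and Col11a2 one of −0.54 (SE 0.22, adjusted P = 0.484). Without Trpc1-/- replicate 2 they were −0.78 and −0.88, and without Trpc1-/- replicate 1 that of Col11a1 was −0.27.

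The type IX chains spread more among the WT samples. Col9a1 (ENSMUSG00000026147) measured 166, 280.4, 303, and 333 CPM in WT replicates 1 to 4 and 127, 250.4, and 151 CPM in Trpc1-/- replicates 1 to 3. Col9a2 (ENSMUSG00000028626) measured 154, 205, 216, and 222 CPM in the WT replicates and 95.8, 192, and 108 CPM in the Trpc1-/- replicates. Col9a3 (ENSMUSG00000027570) measured 145, 167, 179.7, and 175 CPM in the WT replicates and 80.8, 160.2, and 92.8 CPM in the Trpc1-/- replicates. WT replicate 1 was the lowest WT sample for each of these genes, and Trpc1-/- replicates 1 and 3 were lower still. The logFC values were −0.62 (SE 0.30), −0.60 (SE 0.25), and −0.58 (SE 0.23) for Col9a1, Col9a2, and Col9a3, and edgeR gave adjusted P values of 0.525, 0.499, and 0.477. Without Trpc1-/- replicate 2 they were −0.97, −0.97, and −0.95.

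Col10a1 (ENSMUSG00000039462), the marker of hypertrophic chondrocytes, had the widest WT range of the 8 genes. It measured 337, 578, 636, and 1069.9 CPM in WT replicates 1 to 4 and 349, 546, and 357 CPM in Trpc1-/- replicates 1 to 3. WT replicate 1 was the lowest and WT replicate 4 the highest of the 7 samples, and all Trpc1-/- samples lay between them. This gave a logFC of −0.65 (SE 0.37, edgeR adjusted P = 0.557), with −0.31 without WT replicate 4 and −0.90 without Trpc1-/- replicate 2. Nt5dc1 overlaps Col10a1 on the other strand, with 13729 counts over the 7 samples, and the reads were aligned with the strand of the library given.

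Col27a1 (ENSMUSG00000045672) was the only member whose groups did not overlap. It measured 235, 152, 137, and 133 CPM in WT replicates 1 to 4 and 83.3, 131, and 75.1 CPM in Trpc1-/- replicates 1 to 3. Trpc1-/- replicate 2 was just below WT replicate 4, and WT replicate 1 was far above the other WT samples. Its logFC of −0.77 was the lowest of the 8 (SE 0.27, edgeR adjusted P = 0.449), and it was −0.55 without WT replicate 1. Complete separation in the lower direction was found for 1 of 8 members and for 6.42% of all tested genes.

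**Figure D2:**
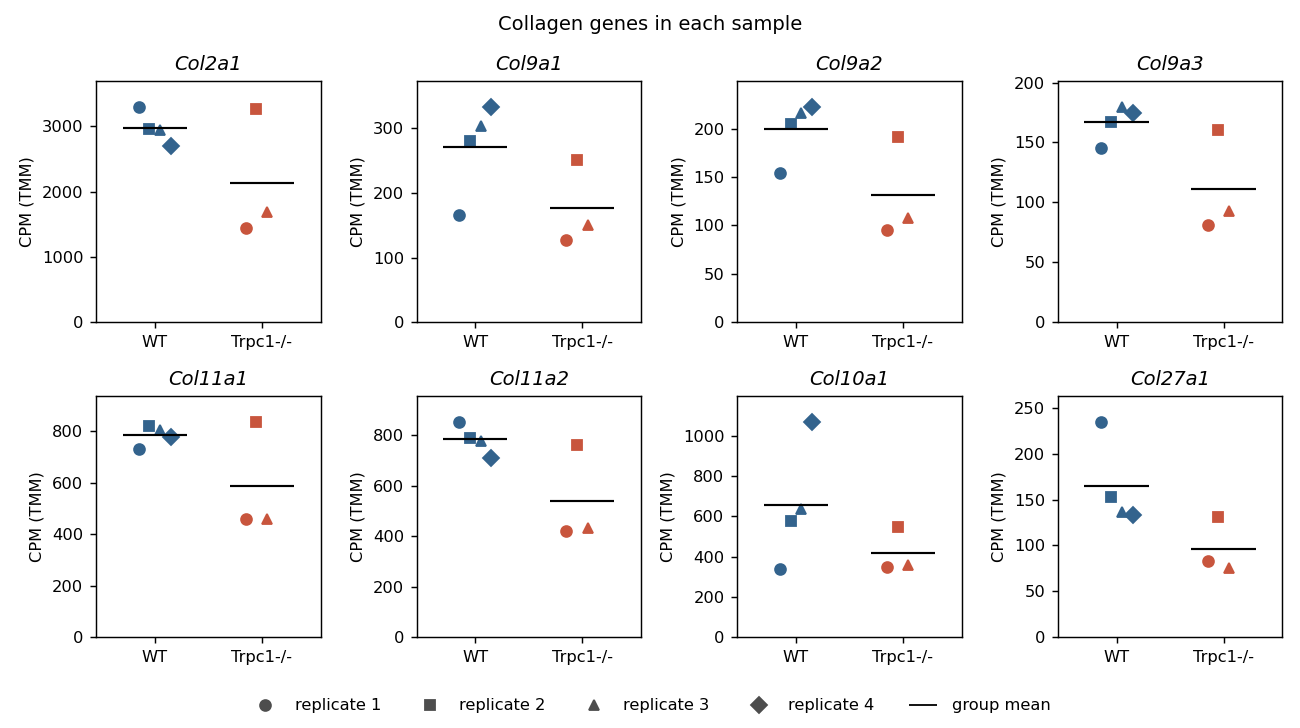
CPM of each gene (TMM scaled, axes from 0) in each WT and Trpc1-/- sample, with the symbol giving the replicate and the line the group mean. Trpc1-/- replicate 2 lies near or within the WT samples in every panel, and Trpc1-/- replicates 1 and 3 lie below all WT samples in each panel but that of Col10a1.

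Each of the 8 members was lower on average in Trpc1-/- samples, at a median logFC of −0.59, compared with −0.0088 over all 16429 tested genes, of which 8525 (51.9%) were lower. In edgeR, 0 of 8 members had an adjusted P under 0.05, as did 0% of all genes, and by DESeq2 it was 0 of 8 members, where 0.828% of all genes were called and lower. At an unadjusted P under 0.05 in edgeR, 4 members were lower (Col9a2, Col9a3, Col11a2, and Col27a1), against 5.49% of all genes that were lower. That number was 7 without Trpc1-/- replicate 2, 5 without WT replicate 1, and 3 with samples blocked by replicate number. It was 1 without WT replicate 2, 3, or 4 and within the 1300s, and 0 without Trpc1-/- replicate 1 or 3. Of all 16429 genes, in either direction, 1643 passed with all samples, 1622 without Trpc1-/- replicate 2, 2769 without WT replicate 1, and 975 with the block. Without WT replicate 2, 3, or 4, 1028, 1692, and 1653 passed. Within the 1300s 2164 passed, and without Trpc1-/- replicate 1 or 3, 852 and 715. The adjusted P values of the members lay between 0.449 and 0.565 in edgeR and between 0.115 and 0.444 in DESeq2. Relative to the WT mean, the members lay between 0.469 and 0.587 in Trpc1-/- replicate 1, between 0.457 and 0.587 in replicate 3, and between 0.798 and 1.10 in replicate 2. The DESeq2 calls depended on single samples. Without Trpc1-/- replicate 2, DESeq2 called 7 of 8 members, all but Col10a1, with logFC values of the 8 between −1.05 and −0.76, where 1.21% of all genes were called and lower. Without WT replicate 1 it called 1 of 8 members, Col27a1 (adjusted P = 0.0443 in DESeq2), where 2.25% of all genes were called and lower, and it called 0 members with each of the other 5 samples left out. Whichever sample was left out, edgeR called 0 members.

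By the numbers in their labels, WT replicates 3 and 4 belong to the 1700s and the other 5 samples to the 1300s. Both genotypes therefore occur only in the 1300s. What these numbers stand for, and whether they mark separate cohorts, is not stated. Within the 1300s the Trpc1-/- mean was lower for all 8 members, at a median logFC of −0.47. The logFC of Col27a1 was −1.004 there (SE 0.29), that of Col2a1 −0.55 (SE 0.37), that of Col9a1 −0.34 (SE 0.35), and that of Col10a1 −0.13 (SE 0.31), with adjusted P values between 0.378 and 0.813 for the 8 members in edgeR.

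**Figure D3:**
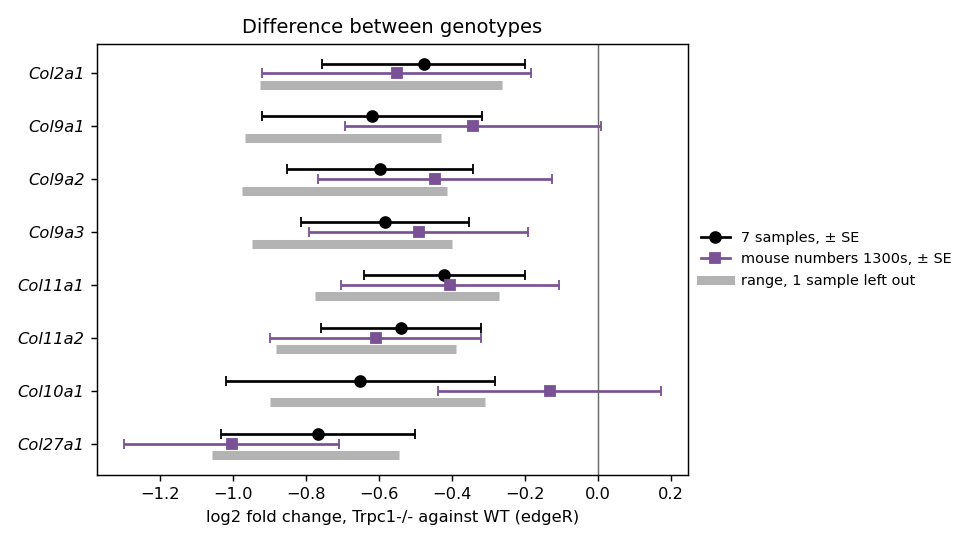
The logFC of each gene, Trpc1-/- against WT, in edgeR, with all 7 samples (black, ± SE) or within the 1300s (purple, ± SE). The grey bar is its range when single samples are left out. The key calls the 1300s mouse numbers, a meaning that the labels do not state. All values are below 0, and that of Col10a1 moves nearest to 0, to −0.13 within the 1300s.

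The proportions between members were compared within samples, since a ratio of 2 genes does not depend on the scaling of the library. In counts, Col10a1 relative to Col2a1 was 0.102, 0.195, 0.216, and 0.397 in WT replicates 1 to 4 and 0.240, 0.167, and 0.210 in Trpc1-/- replicates 1 to 3. The Trpc1-/- samples lay inside the wide WT range, between WT replicates 1 and 4. The mean log2 ratio was −2.30 in both groups, and the difference of 0.0036 had P = 1.00 in an exact permutation test of genotype (two-sided, 35 arrangements). It was −0.33 without WT replicate 1, 0.33 without WT replicate 4, and 0.53 within the 1300s, so these data do not settle its direction. The sum of the type IX chains relative to Col2a1 was 0.141, 0.220, 0.237, and 0.271 in WT replicates 1 to 4 and 0.209, 0.184, and 0.208 in Trpc1-/- replicates 1 to 3. WT replicate 1 held relatively few type IX counts, and the groups overlapped (log2 difference −0.079, exact P = 0.771). The difference was −0.27 without WT replicate 1, 0.040 without WT replicate 4, and 0.18 within the 1300s.

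Col11a1 relative to Col11a2 varied least among these ratios, with 0.856, 1.03, 1.03, and 1.09 in counts in WT replicates 1 to 4 and 1.09, 1.10, and 1.06 in Trpc1-/- replicates 1 to 3. Apart from WT replicate 1, all samples lay between 1.03 and 1.10, although the level of each gene differed widely between the Trpc1-/- samples. The log2 difference was 0.11 (exact P = 0.229), 0.038 without WT replicate 1, and 0.20 within the 1300s. Col11a1 relative to Col2a1 lay between 0.222 and 0.316 over the 7 samples (log2 difference 0.088, exact P = 0.571), and Col27a1 relative to Col2a1 between 0.0401 and 0.0711 (log2 difference −0.20, exact P = 0.40). For Col11a1 the difference came close to 0 without WT replicate 1 (0.0046) or Trpc1-/- replicate 1 (−0.00040), and it was 0.15 without Trpc1-/- replicate 2 and 0.18 within the 1300s. For Col27a1 it was −0.070 without WT replicate 1, −0.094 without Trpc1-/- replicate 2, −0.35 without Trpc1-/- replicate 1, and −0.37 within the 1300s. Col2a1 relative to Col1a1, the main collagen gene of bone, was 0.258, 0.353, 0.416, and 0.426 in WT replicates 1 to 4 and 0.298, 0.368, and 0.329 in Trpc1-/- replicates 1 to 3. WT replicate 1 had the lowest share of the cartilage collagen, and the groups overlapped (log2 difference −0.11, exact P = 0.60). That difference was −0.26 without WT replicate 1, −0.19 without Trpc1-/- replicate 2, −0.024 without WT replicate 4, and 0.13 within the 1300s, with −0.036 and −0.035 without WT replicate 3 and Trpc1-/- replicate 1. None of the 6 ratios passed the threshold after Benjamini-Hochberg adjustment over them, with adjusted P values of 0.900 to 1.00 in the exact test. The smallest possible P is 0.0286, which adjusts to 0.171 for a single ratio, so at least 4 of the 6 would have to reach it together to pass.

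**Figure D4:**
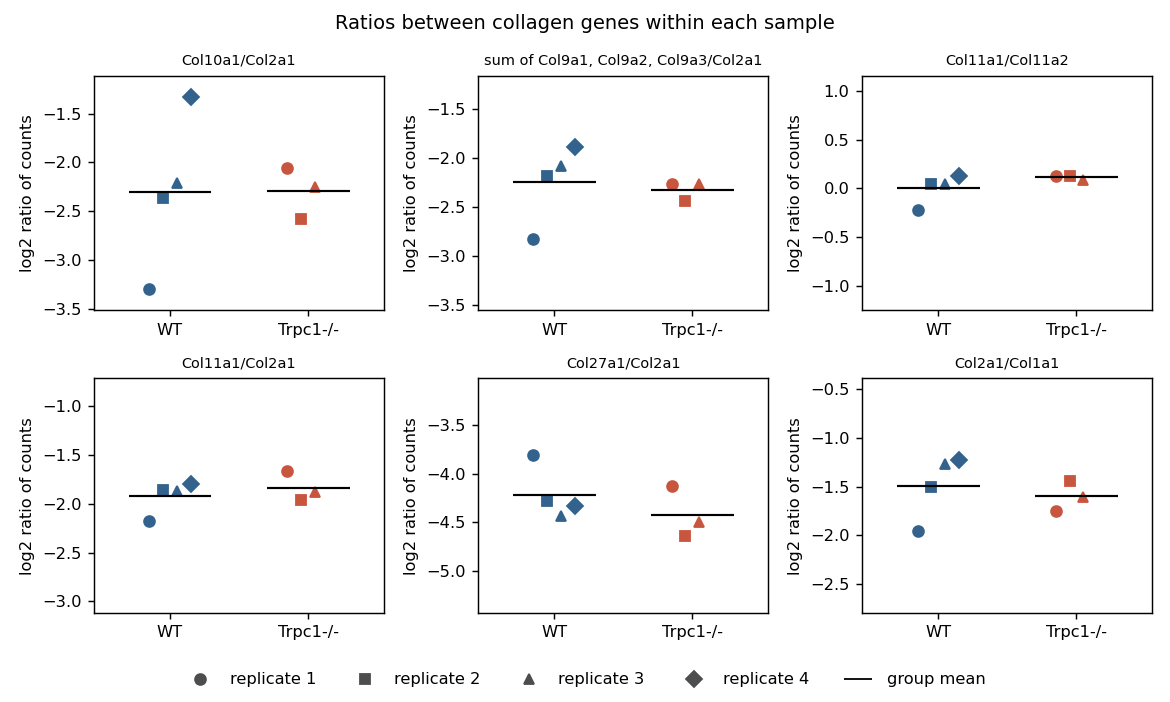
Log2 ratios of counts between collagen genes in each WT and Trpc1-/- sample, on axes of equal span, with the symbol giving the replicate and the line the group mean. WT replicate 1 lies at an end of each panel, and the Trpc1-/- samples lie within or close to the other WT samples.

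Stretches before the start site are shown for a gene of the hypertrophic zone and for the pair of type XI genes. The RefSeq promoter table (GRCm38.p6) had entries for 6 of the 8 members, with a second start for Col9a1, and none for Col2a1 or Col9a3. The 250 bases before the start site were searched on both strands for TATAAA (the TATA box), ACAAT (a core of SOX sites), TGTGGT (a core of RUNX sites), and GGGCGG (the GC box). The stretches, all on the plus strand, are chr10:34389731-34389980 for Col10a1, chr3:114030290-114030539 for Col11a1, and chr17:34038888-34039137 for Col11a2, and capitals mark the motifs found. The RefSeq start of Col11a2 differs from its GENCODE start.
Col10a1: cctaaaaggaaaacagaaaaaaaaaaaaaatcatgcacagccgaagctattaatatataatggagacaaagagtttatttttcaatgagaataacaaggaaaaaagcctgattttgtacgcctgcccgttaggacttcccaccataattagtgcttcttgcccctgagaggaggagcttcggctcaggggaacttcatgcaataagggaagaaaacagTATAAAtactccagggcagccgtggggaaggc
Col11a1: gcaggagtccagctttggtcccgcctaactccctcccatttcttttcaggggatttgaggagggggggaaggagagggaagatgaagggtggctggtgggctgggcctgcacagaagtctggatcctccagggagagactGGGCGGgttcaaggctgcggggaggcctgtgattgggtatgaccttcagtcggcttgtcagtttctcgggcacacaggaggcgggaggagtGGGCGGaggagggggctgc
Col11a2: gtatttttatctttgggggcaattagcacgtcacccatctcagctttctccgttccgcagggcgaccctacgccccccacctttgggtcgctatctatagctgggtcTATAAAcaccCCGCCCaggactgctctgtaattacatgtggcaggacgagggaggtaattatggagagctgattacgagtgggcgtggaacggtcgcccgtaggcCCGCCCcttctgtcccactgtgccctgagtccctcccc
Col10a1 had TATAAA beginning 32 bases before the start and no GGGCGG. Col11a1 had GGGCGG beginning 110 and 19 bases before the start and no TATAAA. Col11a2 had TATAAA beginning 143 bases before the start and GGGCGG on the other strand at 133 and 38 bases. Of the 7 stretches of members, 2 held TATAAA, 4 held GGGCGG, and 0 held ACAAT or TGTGGT, compared with 12.4%, 32.7%, 27.7%, and 14.0% of the 32851 promoters in the table. A match of letters is not a binding site, and its absence here says nothing about a factor.

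The genes that work with these collagens were lower on balance too, in lists written with earlier results of these data known. The counts of these lists describe the 7 samples and are no independent evidence. Of the 82 different genes tested in 6 lists of partners, 77 had a lower mean in Trpc1-/- samples and 5 a higher one, compared with 51.9% lower among all tested genes. In edgeR 0 were called, and 26 were lower and 0 higher at an unadjusted P under 0.05, where 5.49% of all genes were lower. DESeq2 called 11, all lower, against 0.828% of all genes. In 17 of the 82 genes every Trpc1-/- sample was below every WT sample, compared with 6.42% of all genes.

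Among 18 cartilage matrix and SOX genes, 17 were lower, with a median logFC of −0.42. Cilp, a matrix protein of the middle zone of cartilage, measured 488, 532, 542, and 704 CPM in WT replicates 1 to 4 and 325, 308, and 251 CPM in Trpc1-/- replicates 1 to 3. Here all Trpc1-/- samples, replicate 2 included, were below every WT sample. At a logFC of −0.94 (SE 0.16), edgeR gave an adjusted P of 0.334 with all samples and of 0.0468 without WT replicate 1 (logFC −1.01), and DESeq2 gave 4.16e-06. Chad (chondroadherin, which binds collagen and cells) had a logFC of −0.74 (SE 0.16) and Vit (vitrin) one of −0.40 (SE 0.08), with adjusted P values of 0.00267 and 0.00792 in DESeq2 and of 0.395 and 0.381 in edgeR. Comp, which binds collagen fibrils, averaged 578 ± 88.5 CPM over WT samples (SD, n = 4) and 433 ± 65.8 over Trpc1-/- ones (SD, n = 3), and Matn1 2.92 ± 1.21 and 1.42 ± 0.549, both uncalled by either tool. Sox9 and Sox5, which drive transcription of Col2a1 and other members, had logFC values of −0.43 (SE 0.26) and −0.39 (SE 0.28), and Sox6, which also acts in erythroid cells, was the 1 gene of the list with a higher mean (logFC 0.22, SE 0.16). WT replicate 1 carried much of the values of Sox9 and Sox5, whose logFC without it was −0.17 and −0.081. For Sox6 the logFC rose to 0.38 without that sample. Without Trpc1-/- replicate 2 that of Sox9 was −0.65, without Trpc1-/- replicate 3 it was −0.29 for Sox9, and without WT replicate 3 it was 0.13 for Sox6.

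Of 13 genes of the hypertrophic zone, 12 were lower, with a median logFC of −0.22, and neither tool called any. Sp7 and Ibsp of this list also serve as osteoblast and osteocyte markers below, so the list does not measure hypertrophic chondrocytes alone. Ihh, a signal made by prehypertrophic chondrocytes, averaged 4.90 ± 2.21 CPM over WT samples (SD, n = 4) and 3.19 ± 0.683 over Trpc1-/- ones (SD, n = 3). Pth1r, the receptor that holds back hypertrophy, measured 60.9, 62.2, 63.4, and 66.3 CPM in WT replicates 1 to 4 and 43.3, 62.0, and 45.6 CPM in Trpc1-/- replicates 1 to 3. It showed the sample pattern of the fibril collagens, with Trpc1-/- replicate 2 at the WT level, and its logFC of −0.33 (SE 0.13) was −0.52 without that sample. Alpl (alkaline phosphatase) had a logFC of −0.45 (SE 0.21), and Vegfa one of −0.38 (SE 0.11), with groups of Vegfa that did not overlap. Spp1 (osteopontin) was the gene with a higher mean, at a logFC of 0.062 (SE 0.16), which lay between −0.047 and 0.13 with single samples left out. Without WT replicate 4 the logFC of Ihh went from −0.62 to −0.33, and that of Alpl was −0.70 without Trpc1-/- replicate 2 and −0.28 without Trpc1-/- replicate 3.

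All 9 bone and fibrous collagen genes were lower, with a median logFC of −0.38, and neither tool called any. Col24a1 had the lowest logFC of them, −0.57 (SE 0.24), and Col14a1 the highest, −0.14 (SE 0.24). Col5a3 was at −0.52 (SE 0.25), Col12a1 at −0.38 (SE 0.22), and Col5a2 at −0.34 (SE 0.20). Without Trpc1-/- replicate 3, Col12a1 was at −0.20 and Col5a2 at −0.19, without Trpc1-/- replicate 2 Col12a1 was at −0.64, and without WT replicate 1 Col5a3 was at −0.30 and Col14a1 at 0.040. The 7 collagen receptor genes were all lower, with a median logFC of −0.28. Itga10, the chain of the integrin that chondrocytes use to bind type II collagen, measured 71.0, 50.5, 46.4, and 46.7 CPM in WT replicates 1 to 4 and 29.6, 40.1, and 27.6 CPM in Trpc1-/- replicates 1 to 3. Its groups did not overlap (logFC −0.73, SE 0.19), and it was the receptor gene that DESeq2 called (adjusted P = 0.0328, against 0.395 in edgeR). The discoidin receptors Ddr1 and Ddr2 had logFC values of −0.28 (SE 0.11) and −0.36 (SE 0.17), Itga1 had −0.21 (SE 0.083), and Itgb1, which pairs with all of these integrin chains, had −0.034 (SE 0.10). Without WT replicate 1 the logFC of Ddr2 was −0.21, and that of Itgb1 lay between −0.070 and 0.023 with single samples left out.

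The genes of procollagen modification and processing held most of the calls. Of 28 genes, 27 were lower, with a median logFC of −0.28, 13 were lower at an unadjusted P under 0.05 in edgeR, and DESeq2 called 7. Lox, which starts the cross-links between collagen molecules, measured 162, 162, 149, and 166 CPM in WT replicates 1 to 4 and 112, 127, and 102 CPM in Trpc1-/- replicates 1 to 3. All Trpc1-/- samples were below every WT sample. At a logFC of −0.49 (SE 0.098), edgeR gave an adjusted P of 0.381 and DESeq2 one of 0.000576. Loxl4 of the same enzyme family had a logFC of −0.77 (SE 0.18), the proline hydroxylases P4ha2 and P3h2 had −0.54 (SE 0.11) and −0.43 (SE 0.089), and DESeq2 gave them adjusted P values of 0.0138, 0.00712, and 0.00626. The other 3 calls, named after their values were seen, were Colgalt2 (logFC −0.71), Loxl2 (−0.63), and Loxl3 (−0.47). Ppib, an isomerase of proline, was the gene with a higher mean (logFC 0.074, SE 0.16), and it lay between −0.056 without WT replicate 1 and 0.15 without WT replicate 3. Among 8 genes of collagen degradation, 6 were lower, with a median logFC of −0.21, and neither tool called any. Mrc2, Htra1, Mmp14, and Mmp2 had logFC values of −0.35, −0.33, −0.32, and −0.29, and Mmp8, a collagenase of neutrophils, had 0.23 (SE 0.31). Without Trpc1-/- replicate 3 the logFC was −0.19 for Mmp14 and −0.16 for Mmp2, without WT replicate 1 it was −0.23 for Mrc2 and −0.0100 for Mmp8, and without WT replicate 4 it was 0.37 for Mmp8.

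**Figure D5:**
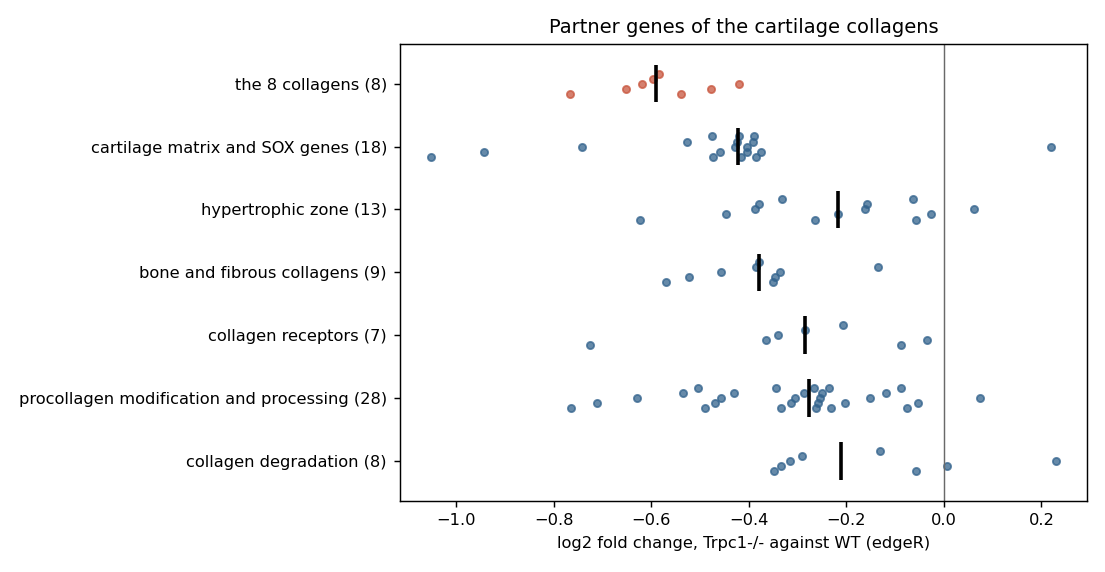
The logFC in edgeR of each tested gene in the 8 collagens (red) and in 6 lists of partner genes (blue), Trpc1-/- against WT, with the number of genes beside each list and the median as a bar. The median is −0.59 for the 8 collagens and lies between −0.42 and −0.21 for the partner lists.

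Markers of other cell types moved with the genotypes and with single samples. The 8 chondrocyte markers summed to 1638, 1881, 1916, and 1927 CPM in WT replicates 1 to 4 and to 1191, 1718, and 1152 CPM in Trpc1-/- replicates 1 to 3, and the Trpc1-/- mean was lower for all 8, with Acan the most abundant (355 to 705 CPM). The 9 osteoblast and osteocyte markers, all lower, summed to 13755, 10047, 8859, and 7619 CPM in the WT replicates and to 6002, 10333, and 6177 CPM in the Trpc1-/- replicates, with Col1a1 the most abundant (4873 to 12768 CPM). In both lists Trpc1-/- replicates 1 and 3 had the lowest sums, but Col1a1 makes up most of the bone sum. Of the other 8 bone markers, all picked with their values in view, Bglap, Bglap2, Ibsp, and Mepe were lowest in WT replicate 1, Sp7 and Dmp1 in Trpc1-/- replicate 1, and Phex and Sost in Trpc1-/- replicate 3. The 12 erythroid markers, all higher in Trpc1-/- samples, summed to 19272, 32629.5, 36375, and 29524 CPM in WT replicates 1 to 4 and to 46694, 42026, and 57442 CPM in Trpc1-/- replicates 1 to 3, with Hbb-bs the most abundant (6097 to 20392 CPM). Every Trpc1-/- sample was above every WT sample, and Trpc1-/- replicate 2 had the smallest sum of the 3. The part of erythroid or bone RNA in the collagen differences was not tested.

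WT replicate 1 lay at an end of other lists as well. The 5 skeletal muscle markers, led by Myh4 (28.1 to 477 CPM), summed to 973, 186, 147, and 54.0 CPM in WT replicates 1 to 4 and to 328, 486, and 838 CPM in Trpc1-/- replicates 1 to 3. The 8 neutrophil markers, led by S100a9 (1596 to 6109 CPM), summed to 5277, 13231, 15196, and 16758 CPM in the WT replicates and to 15465, 12334, and 16251 CPM in the Trpc1-/- replicates. The muscle sum was thus highest and the neutrophil sum lowest in WT replicate 1, which also had the smallest library. Trpc1-/- replicate 3 came near that muscle sum, and its Mylpf was above that of WT replicate 1 (75.6 against 70.7 CPM). All 5 muscle markers had a higher Trpc1-/- mean. So did all 8 neutrophil markers, but only 3 of them without WT replicate 1 and 4 without Trpc1-/- replicate 1, so the direction of that list rests on single samples. The 5 synovial fibroblast markers, led by Prg4 (323 to 724 CPM), were all lower, with sums of 961, 705, 585, and 658 CPM in WT replicates 1 to 4 and of 493, 555, and 541 CPM in Trpc1-/- replicates 1 to 3. Prg4 makes up most of each sum and is also in the list of cartilage matrix genes, so the sums do not measure synovium alone. The 6 B cell markers, led by Cd79b, and the 5 adipocyte markers, led by Cfd, all had a higher Trpc1-/- mean, with sums of 152 to 259 and of 187 to 354 CPM over the 7 samples. Both sums overlapped between genotypes. The B cell sum was 223 CPM in WT replicate 3 and 215 in Trpc1-/- replicate 1, and the adipocyte sum 292 in WT replicate 1 and 282 in Trpc1-/- replicate 2. Without Trpc1-/- replicate 2, 5 B cell markers were higher and 1 lower. Of the 6 osteoclast markers, led by Ctsk, 2 were higher and 4 lower (5 higher without WT replicate 4), and of the 5 endothelial markers, led by Pecam1, 1 was higher and 4 lower, with sums of 332 to 705 and of 173 to 191 CPM over the 7 samples. Each marker was above the floor of 3 counts in at least 1 sample.

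The genes whose log2 CPM over the 7 samples lay closest to the mean log2 CPM of the members were Pth1r (Pearson r = 0.996), Dll1 (0.994), Nid2 (0.993), Sox8 (0.991), Gm4788 (0.991), Lurap1l (0.981), Sh3bp4 (0.979), S1pr3 (0.976), Klhl42 (0.975), and Phex (0.973). Nid2, a basement membrane protein, measured 24.0, 25.2, 25.4, and 25.3 CPM in WT replicates 1 to 4 and 15.7, 24.7, and 16.1 CPM in Trpc1-/- replicates 1 to 3. Sox8, a relative of Sox9, measured 3.50, 4.13, 4.26, and 4.24 CPM in the WT replicates and 2.19, 3.82, and 2.54 CPM in the Trpc1-/- replicates. For both, Trpc1-/- replicates 1 and 3 were the lowest of the 7 samples. The genes with the most opposite pattern were Cenpa, a histone variant of centromeres (r = −0.992), Tbc1d9 (−0.989), Klrb1b (−0.979), Ppp2r1b (−0.977), and Gm29718, a processed pseudogene (−0.974). Cenpa measured 71.6, 68.7, 68.4, and 69.0 CPM in WT replicates 1 to 4 and 84.5, 71.1, and 81.3 CPM in Trpc1-/- replicates 1 to 3. These r values come from 7 samples that share their libraries and rest largely on 2 low samples, and they were picked as extremes among all tested genes.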

How the data were processed

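RNA was sequenced from 7 samples. The authors made stranded libraries from 300 ng of total RNA with ribosomal RNA removed, trimmed reads with Cutadapt 2.5, aligned them to GRCm38 with HISAT2 2.1.0 (strand given), and deposited estimated counts per gene derived from StringTie 2.0.3 coverage. These estimated counts were whole numbers, so rounding changed none. Labels give 4 WT and 3 Trpc1-/- samples, the Methods 3 and 4, and the labels were used. In R 4.3.3, the 16429 genes above 1 CPM in 2 or more samples were scaled by TMM and tested with edgeR 4.0.16 (quasi-likelihood, genotype alone, Benjamini-Hochberg adjustment over all tested genes, threshold 0.05). DESeq2 1.42.0 and limma-voom 3.58.1 were run on the same genes. The fits were tested on simulated data first.

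Marker levels are sums of CPM. Ratios used an exact permutation test on log2 ratios, two-sided. Annotation was GENCODE M21, and the authors' annotation release is not stated. A floor of 3 counts corresponds to 0.0254 to 0.0575 CPM by library totals, without TMM scaling, and, like counts themselves, covers counting error only. Each sample is a separate pool of mice, and no 2 samples held identical values. Alternatives were other tools, scalings, filters, the range of label numbers, the replicate block, each sample left out, a pseudocount of 1 for ratios, and another length per gene.

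The members and lists were chosen with earlier results of these data known. Genes named are the 8 members, Trpc1, from each list any gene called by edgeR or else the 4 with the smallest unadjusted P, with its largest change in each direction, the most abundant marker of each marker list, and the 10 genes closest to and 5 most opposite to the members by Pearson r. Sox9, Sox5, Colgalt2, Loxl2, Loxl3, and the bone markers other than Col1a1 were named outside this rule, after their values were seen. Also outside it are Col1a2 and Col3a1, named for their rank above Col2a1, and Nt5dc1, named because it overlaps Col10a1.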

Additional observations from a re-analysis of the deposited data

How the results depend on the processing

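Under 16 alternatives each, the 8 members kept a lower mean in Trpc1-/- samples in all 128 values, and 0 members were called by edgeR or limma-voom. DESeq2 called 0 with all samples and 0 to 7 with each sample left out, the latter added after the data were seen. Over all genes edgeR called 0 (1643 at an unadjusted P under 0.05), DESeq2 294, and limma-voom 1, and edgeR called 0 to 49 with each sample left out (715 to 2769 at an unadjusted P under 0.05) and DESeq2 37 to 890, the highest without WT replicate 1. In the 6 partner lists edgeR called 0, DESeq2 11, and edgeR with each sample left out 0 to 1 (Cilp).

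The log2 ratio of Col10a1 to Col2a1, 0.0036, ranged from −0.33 to 0.33 with each sample left out, that of the type IX chains to Col2a1 from −0.27 to 0.040, and that of Col11a1 to Col2a1 from −0.00040 to 0.15. Within the 1300s, the Col10a1 difference was 0.53, and the type IX difference turned to 0.18 and that of Col2a1 to Col1a1 to 0.13. The exact test could not pass the threshold within the 1300s or with a sample left out, where its smallest P values are 0.10, 0.05, and 0.0667. Among the partner genes whose logFC the report prints, the sign changed with a sample left out for Mmp8 (−0.0100 to 0.37), Col14a1 (−0.31 to 0.040), Itgb1 (−0.070 to 0.023), Spp1 (−0.047 to 0.13), and Ppib (−0.056 to 0.15). Other genes of the lists turned too, as the number of lower genes ranged from 9 to 13 in the hypertrophic list (12 with all samples), 4 to 8 in degradation (6), and 5 to 7 among receptors (7). The cause of these turns was not tested.

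Same-numbered samples are different pools, and their deviations from the group means did not correlate positively (r from −0.348 to −0.0439 over 3 pairs). With the replicate block, edgeR called 0 genes and 0 members, DESeq2 53 genes and 0 members, the type IX ratio turned to 0.040, and the Col10a1 ratio was 0.33. The block drops WT replicate 4, and leaving out that sample alone gave the same ratios.

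Pooling of mice, 3 samples in a group, and label numbers of another range in 2 WT samples limit every comparison. Depth did not limit the members, and the deposited table holds no measure of tissue content apart from RNA.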
